A study of Mus musculus with 9 samples.

Results

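Clock output genes carry the time signal of the circadian clock into liver metabolism. Here 9 of them were followed in mouse liver after an overdose of acetaminophen: Dbp, Tef, Hlf, Nfil3, Ciart, Bhlhe40, Bhlhe41, Usp2 and Upp2, found by symbol among the 21870 genes of the deposited mRNA table. Each had 1 entry, and all 9 passed the filter on low values. They were chosen by their FPKM in the control, APAP and dmPGE2+APAP libraries, so their levels and differences are given as a description, with no p-value. The mice were wild-type C57 BL6, 8 weeks old, with an average weight of 20 g, in 3 groups of 3 libraries. Control mice received saline. APAP mice received acetaminophen (APAP, an analgesic that injures the liver in overdose) at 500 mg/kg into the peritoneum. The dmPGE2+APAP mice received the prostaglandin E2 analogue dmPGE2, injected likewise at 300 μg/kg, 1 h before that dose. Livers were taken 6 h after APAP. The labels give no clock time of injection or collection and nothing on feeding, and nothing in them says that the 3 libraries of a group are separate mice.

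In the molecular clock, CLOCK and BMAL (encoded by Arntl) bind E-boxes in DNA and switch on their own repressors, the PER and CRY proteins, together with output genes. Dbp, Tef and Hlf are output genes that encode activators of the PAR bZIP family. They bind D-boxes in genes of detoxification and lipid metabolism, and NFIL3 binds the same sites as a repressor. CIART, BHLHE40 and BHLHE41 repress CLOCK and BMAL, USP2 removes ubiquitin from proteins, and UPP2 is a uridine phosphorylase of liver, which splits uridine into uracil and a ribose phosphate.

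RefSeq windows (GRCm38.p6) from 250 bases before to 50 bases after a start site were matched for 8 of the 9 genes, in 10 windows, since Tef and Upp2 have 2 each. Bhlhe40 was not matched. The E-box letters CACGTG, which read the same on both strands, stood in 4 windows of 3 genes, and 7.15% of all 32851 windows hold them. Ciart is shown because its window holds 3 E-boxes (0.0883% of all windows hold 3 or more), the Tef windows and the Bhlhe41 window because each holds 1, and Dbp because its window holds none. Hlf is shown for the cAMP response element letters TGACGTCA, also the same on both strands (1.79% of all windows). Nfil3 is shown for the ROR element letters TAGGTCA, which stand in its window on the other strand as TGACCTA (2.61% of all windows, either strand). The 2 Upp2 windows are shown because they differ in base composition and Upp2-206, a transcript described with the Upp2 values, starts in the upstream one. Each sequence is on the strand of its gene, 5′ to 3′, and capitals mark the matches of these motifs or, at the downstream Upp2 start, of the TATA box letters TATAAA (13.6% of all windows, either strand).
Ciart, chr3:95882179-95882478, minus strand: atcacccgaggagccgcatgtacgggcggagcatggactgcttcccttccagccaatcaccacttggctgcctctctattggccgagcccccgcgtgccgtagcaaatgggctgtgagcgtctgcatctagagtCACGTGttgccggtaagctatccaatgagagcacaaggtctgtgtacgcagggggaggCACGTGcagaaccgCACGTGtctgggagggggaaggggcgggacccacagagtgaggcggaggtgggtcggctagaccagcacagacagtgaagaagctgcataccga
Tef, upstream start, chr15:81802423-81802722, plus strand: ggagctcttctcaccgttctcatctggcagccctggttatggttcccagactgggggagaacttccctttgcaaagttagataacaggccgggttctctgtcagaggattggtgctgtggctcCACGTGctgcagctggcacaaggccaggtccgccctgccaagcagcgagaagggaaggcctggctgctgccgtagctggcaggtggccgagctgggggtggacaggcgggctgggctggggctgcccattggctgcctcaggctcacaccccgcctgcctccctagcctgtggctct
Tef, downstream start, chr15:81811164-81811463, plus strand: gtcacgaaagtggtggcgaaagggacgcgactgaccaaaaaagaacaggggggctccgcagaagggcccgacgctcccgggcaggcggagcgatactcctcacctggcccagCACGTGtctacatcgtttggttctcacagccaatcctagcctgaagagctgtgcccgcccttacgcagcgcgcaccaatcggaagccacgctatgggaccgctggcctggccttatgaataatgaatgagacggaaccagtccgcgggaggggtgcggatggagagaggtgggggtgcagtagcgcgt
Bhlhe41, chr6:145865371-145865670, minus strand: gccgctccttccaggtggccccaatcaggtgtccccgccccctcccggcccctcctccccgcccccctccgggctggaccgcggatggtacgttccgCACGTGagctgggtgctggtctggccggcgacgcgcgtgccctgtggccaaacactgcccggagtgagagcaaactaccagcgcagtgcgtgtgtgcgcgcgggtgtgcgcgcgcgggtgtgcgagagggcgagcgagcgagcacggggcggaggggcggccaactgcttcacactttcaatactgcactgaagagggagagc
Dbp, chr7:45704997-45705296, plus strand: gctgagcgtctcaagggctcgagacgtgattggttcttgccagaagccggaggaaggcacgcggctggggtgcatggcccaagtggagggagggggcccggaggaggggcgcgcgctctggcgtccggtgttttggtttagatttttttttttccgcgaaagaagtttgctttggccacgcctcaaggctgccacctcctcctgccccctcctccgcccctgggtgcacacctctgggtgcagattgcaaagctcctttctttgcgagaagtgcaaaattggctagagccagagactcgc
Hlf, chr11:90390868-90391167, minus strand: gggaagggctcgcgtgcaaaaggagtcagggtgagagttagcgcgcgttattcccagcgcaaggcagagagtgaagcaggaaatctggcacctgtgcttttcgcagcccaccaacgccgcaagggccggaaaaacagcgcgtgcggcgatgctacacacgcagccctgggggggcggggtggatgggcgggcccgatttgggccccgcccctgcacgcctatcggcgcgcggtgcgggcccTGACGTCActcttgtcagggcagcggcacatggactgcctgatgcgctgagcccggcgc
Nfil3, chr13:52980990-52981289, minus strand: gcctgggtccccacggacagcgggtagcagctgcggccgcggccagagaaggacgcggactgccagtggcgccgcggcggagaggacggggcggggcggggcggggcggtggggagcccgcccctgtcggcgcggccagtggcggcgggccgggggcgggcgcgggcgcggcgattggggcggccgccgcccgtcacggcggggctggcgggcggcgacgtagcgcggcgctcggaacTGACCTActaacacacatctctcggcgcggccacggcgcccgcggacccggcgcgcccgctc
Upp2, upstream start, chr2:58567084-58567383, plus strand: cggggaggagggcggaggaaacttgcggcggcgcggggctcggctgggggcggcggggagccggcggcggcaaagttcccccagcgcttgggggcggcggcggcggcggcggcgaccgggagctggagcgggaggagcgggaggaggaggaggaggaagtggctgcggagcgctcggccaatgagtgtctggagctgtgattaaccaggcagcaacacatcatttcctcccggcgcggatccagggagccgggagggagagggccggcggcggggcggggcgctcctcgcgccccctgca
Upp2, downstream start, chr2:58754934-58755233, plus strand: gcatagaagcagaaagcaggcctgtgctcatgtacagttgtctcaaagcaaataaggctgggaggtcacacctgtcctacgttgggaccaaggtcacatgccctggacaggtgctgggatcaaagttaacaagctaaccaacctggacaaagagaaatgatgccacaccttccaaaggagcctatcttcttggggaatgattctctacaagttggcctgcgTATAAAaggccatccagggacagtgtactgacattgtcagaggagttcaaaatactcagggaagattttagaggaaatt

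Counted from the start site, with the base before it as -1, the E-boxes of Ciart begin at -116, -58 and -44. Those of Tef begin at -127 in the upstream and -138 in the downstream window, and that of Bhlhe41 begins at -153. The cAMP response element of Hlf begins at -9, the ROR element letters of Nfil3 at -12 and the TATA letters of Upp2 at -29. None of 4 D-box spellings (TTATGTAA, TTATGCAA, TTACGTAA and TTACGCAA, on both strands) occurred in the 10 windows, and 1.94% of all windows held at least 1 of them. A match is a string of letters, not a shown binding site, and a missing match says only that these letters are not in this window.

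In each of 2 groups 1 library was the highest or the lowest of its 3 more often than the other libraries were. Control replicate 3 was the highest or the lowest control for 9 of the 9 genes (highest for 7, lowest for Nfil3 and Ciart), and for 79.2% of all genes tested. On values rescaled between libraries it was extreme for 8 of 9, and for 78.5% of all genes. It also held the lowest Arntl of the controls (0.441 FPKM, the others 1.48 and 2.19 FPKM) and the highest Nr1d1 (43.0 FPKM, the others 14.2 and 15.9 FPKM). Fasn, a fatty acid synthesis gene induced by feeding, was at 55.0 FPKM in it and at 9.84 and 14.2 FPKM in the other controls. Pck1, a gluconeogenic gene induced by fasting, was at 698 FPKM in it and at 1819.5 and 1991 FPKM in the others. Among dmPGE2+APAP libraries replicate 1 was extreme for 8 of the 9 genes (lowest for 7), and for 74.4% of all genes. On rescaled values it was lowest for 6. Any library of 3 is often extreme. In the other libraries the share of all genes ran from 59.2% (control replicate 2) to 71% (APAP replicate 3, extreme for 7 of the 9). On rescaled values APAP replicate 2 and dmPGE2+APAP replicate 3 were also extreme for 7. The part of these differences between libraries in the group levels was not tested.

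In control livers the genes spanned a wide range of levels. FPKM is scaled to transcript length and library size, so levels may be set side by side between genes. Upp2 was the highest at 88.3 ± 11.9 FPKM (mean ± SD, n = 3 libraries here and below), followed by Tef at 56.1 ± 2.13 FPKM. Dbp (34.2 ± 24.0 FPKM) and Bhlhe40 (29.0 ± 25.1 FPKM) came next, and their libraries overlapped each other and those of Tef. Usp2 was at 13.1 ± 0.623 FPKM and lay inside the range of Bhlhe40. Nfil3 (8.34 ± 2.83 FPKM), Hlf (7.49 ± 1.21 FPKM) and Ciart (6.91 ± 2.39 FPKM) overlapped one another, and Bhlhe41 was lowest at 1.02 ± 0.555 FPKM. In APAP livers the order of means ran Bhlhe40, Nfil3, Upp2, Tef, Usp2, Hlf, Ciart, Dbp and Bhlhe41. The libraries of Nfil3 and Upp2 overlapped there, as did those of Upp2 and Tef and of each neighbouring pair from Usp2 to Dbp. In dmPGE2+APAP livers the order ran Upp2, Bhlhe40, Nfil3, Tef, Ciart, Usp2, Hlf, Dbp and Bhlhe41, with overlap between Upp2 and Bhlhe40, Ciart and Usp2, and Hlf and Dbp.

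**Figure D1:**
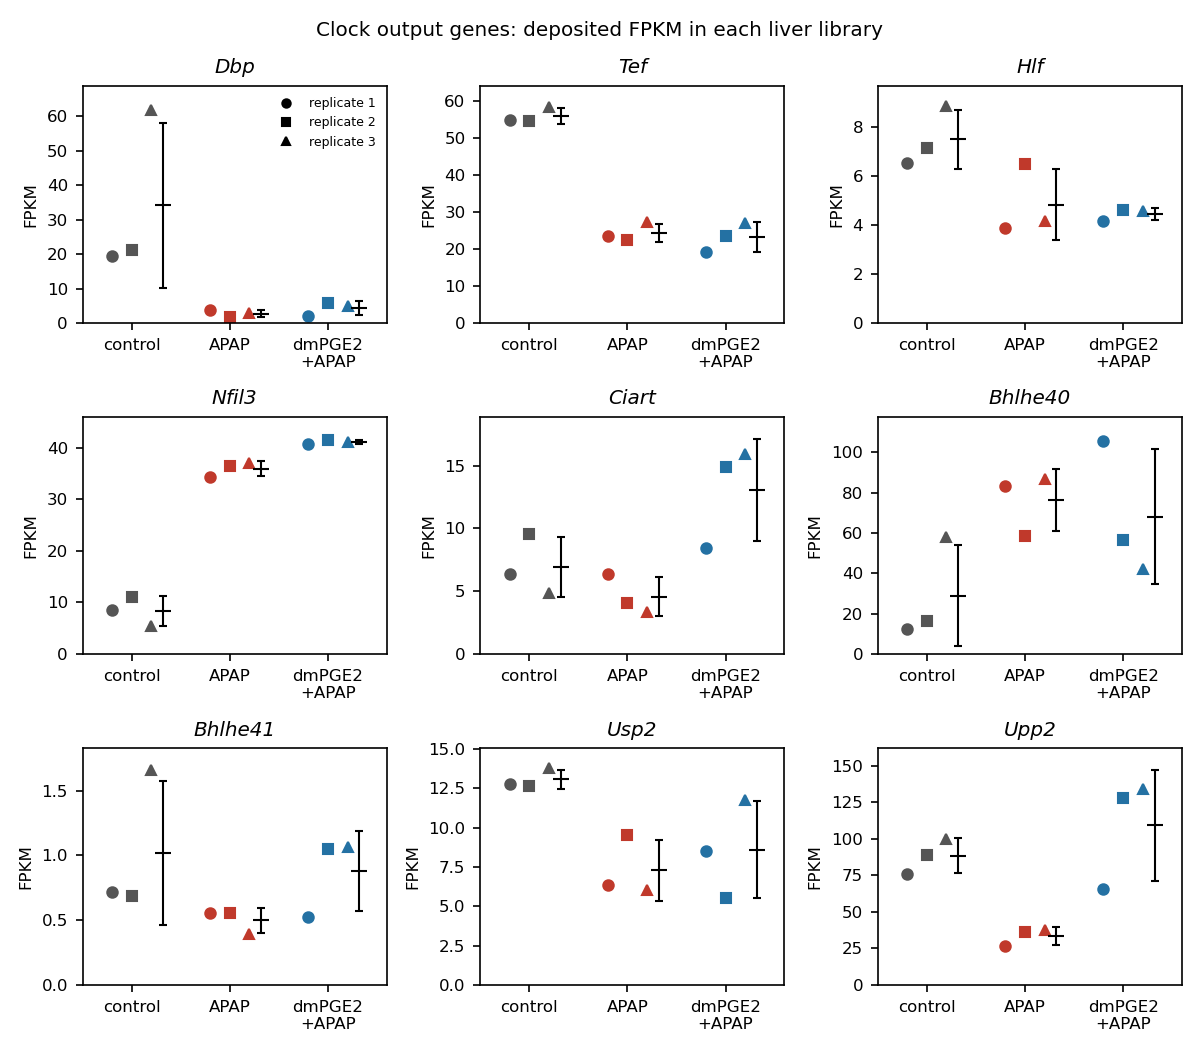
Deposited FPKM (vertical axis, starting at 0) of the 9 clock output genes in each of the 9 libraries, with circles, squares and triangles for replicates 1, 2 and 3 and black bars for mean ± SD. Dbp, Tef and Upp2 are lower and Nfil3 is higher in all APAP libraries than in all control libraries, while control replicate 3 stands away from the other controls for Dbp and Bhlhe40 and dmPGE2+APAP replicate 1 from its group for Upp2.

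The 3 activator genes were lower after APAP, to very different degrees. Dbp (ENSMUSG00000059824, GRCm38 chromosome 7, from 45705088 to 45710203, plus strand) was at 19.4, 21.2 and 61.8 FPKM in controls, 3.63, 1.64 and 2.85 FPKM in APAP livers and 1.97, 5.73 and 5.05 FPKM in dmPGE2+APAP livers. Both treated groups lay below every control library, and they overlapped each other. The fitted difference of APAP from control, on the scale log2(rescaled FPKM + 0.1) used for all differences, was -3.35 (SE 0.50), which is 0.0984 of the control level. It was -2.84 without control replicate 3, or 0.140 of control. The dmPGE2+APAP difference from control was -2.77 (SE 0.50), and -2.26 without control replicate 3.

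Tef (chromosome 15, from 81802421 to 81826863, plus strand) had even control libraries. It was at 55.0, 54.7 and 58.5 FPKM in controls, 23.6, 22.4 and 27.2 FPKM in APAP livers and 19.2, 23.5 and 27.2 FPKM in dmPGE2+APAP livers. Every treated library lay below every control, and the treated groups overlapped. The APAP difference was -1.08 (SE 0.12), or 0.473 of control, and the dmPGE2+APAP difference from control was -1.14 (SE 0.12).

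Hlf (chromosome 11, from 90336536 to 90390895, minus strand) had the smallest difference of the 3. It was at 6.51, 7.12 and 8.85 FPKM in controls, 3.86, 6.49 and 4.15 FPKM in APAP livers and 4.18, 4.63 and 4.57 FPKM in dmPGE2+APAP livers. In deposited FPKM APAP replicate 2 lay just under the lowest control. On rescaled values (factors 0.954 and 1.04) it lay above control replicate 1. The difference of -0.53 (SE 0.19) was -0.77 without APAP replicate 2.

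Nfil3, the repressor (chromosome 13, listed from 52967101 to 52981073, minus strand), was higher after APAP. It was at 8.51, 11.1 and 5.44 FPKM in controls, 34.3, 36.5 and 37.1 FPKM in APAP livers and 40.7, 41.6 and 41.0 FPKM in dmPGE2+APAP livers. No 2 groups overlapped, and the libraries of each treated group were close to one another. The difference of APAP from control was 2.27 (SE 0.23), a 4.83-fold level, and dmPGE2+APAP was 1.15-fold above APAP (log2 0.21, SE 0.23). The listed locus starts before the GENCODE gene (52967209), at the start of an assembled lncRNA entry named Nfil3-AS1. That entry was at 0, 0.555 and 0.231 FPKM in controls, 1.68, 1.96 and 0.0773 FPKM in APAP livers and 1.97, 0.0155 and 2.27 FPKM in dmPGE2+APAP livers, so it varied widely within each group. Whether reads of the 2 entries were separated by strand is not given in the sources used here.

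Set against each other within a library, the activators outweighed the repressor in controls and not after APAP. The summed FPKM of Dbp, Tef and Hlf was 9.51, 7.49 and 23.8 times that of Nfil3 in the control libraries. It was 0.907, 0.836 and 0.921 times that of Nfil3 in APAP livers and 0.624, 0.816 and 0.897 times in dmPGE2+APAP livers. The sum was thus below the repressor in all 6 treated libraries and above it in all 3 controls. Tef made up 68.0, 65.9 and 45.3 percent of the sum in controls and 75.9, 73.3 and 79.5 percent in APAP livers. These ratios do not depend on the scaling between libraries, and they compare RNA, not protein.

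**Figure D2:**
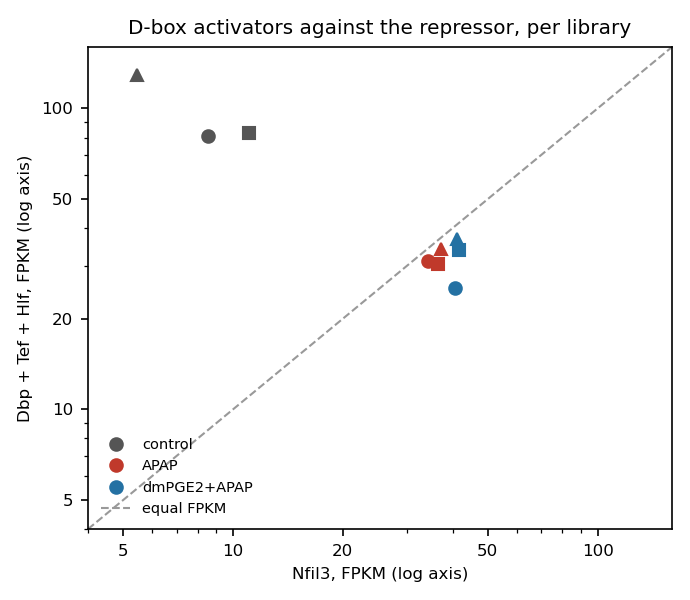
Summed FPKM of Dbp, Tef and Hlf (vertical, log axis) against FPKM of Nfil3 (horizontal, log axis) in each of the 9 libraries, with circles, squares and triangles for replicates 1, 2 and 3 and a dashed line of equal levels. The 3 control libraries lie above the line and the 6 treated libraries lie just below it.

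The repressors of CLOCK and BMAL did not share one pattern. Bhlhe40 (chromosome 6, from 108660629 to 108666925, plus strand) was at 12.6, 16.4 and 57.9 FPKM in controls, 83.3, 58.5 and 86.6 FPKM in APAP livers and 106, 56.3 and 42.2 FPKM in dmPGE2+APAP livers. Control replicate 3 reached almost to the lowest APAP library, and the dmPGE2+APAP libraries overlapped both other groups. The APAP difference was 1.83 (SE 0.52), or 3.55-fold, and 2.47 without control replicate 3.

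Its relative Bhlhe41 (chromosome 6, from 145858243 to 145865558, minus strand) was at a far lower level, and its difference had the opposite sign. It was at 0.715, 0.688 and 1.66 FPKM in controls, 0.554, 0.554 and 0.391 FPKM in APAP livers and 0.528, 1.05 and 1.07 FPKM in dmPGE2+APAP livers. Controls and APAP livers did not overlap, and the difference of -0.70 (SE 0.34) was -0.35 without control replicate 3. Bhlhe40 was 17.6, 23.8 and 34.8 times as high as Bhlhe41 in controls and 150.3, 106 and 222 times as high in APAP livers. In dmPGE2+APAP livers the ratio was 200.4 in replicate 1 and 53.8 and 39.5 in the others.

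Ciart (chromosome 3, from 95878503 to 95882251, minus strand), the gene with 3 E-boxes in its printed window, was at 6.34, 9.54 and 4.87 FPKM in controls, 6.36, 4.03 and 3.33 FPKM in APAP livers and 8.45, 14.9 and 15.9 FPKM in dmPGE2+APAP livers. All dmPGE2+APAP libraries lay above all APAP libraries, while APAP and control livers overlapped, as did dmPGE2+APAP replicate 1 and the controls. The difference of dmPGE2+APAP from APAP was 1.51 (SE 0.33), or 2.85-fold, and that of APAP from control was -0.47 (SE 0.33). Without dmPGE2+APAP replicate 1 the first was 1.78. The 2 differences share the APAP libraries.

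Usp2 (chromosome 9, from 44067021 to 44095627, plus strand) had even controls and uneven treated libraries. It was at 12.7, 12.7 and 13.8 FPKM in controls, 6.36, 9.52 and 6.01 FPKM in APAP livers and 8.51, 5.56 and 11.7 FPKM in dmPGE2+APAP livers. In deposited FPKM every treated library was below every control, and the treated groups overlapped. On rescaled values (factors 0.958 and 1.04) dmPGE2+APAP replicate 3 lay above control replicate 2. The difference of APAP from control was -0.74 (SE 0.27), or 0.598 of control. The highest library of each treated group, APAP replicate 2 and dmPGE2+APAP replicate 3, was also the one in which the non-coding transcript Usp2-209 (908 bases, 4 exons) was high, at 2.70 and 4.26 FPKM. It was between 0.105 and 0.141 FPKM in the other 7 libraries.

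Upp2 (ENSMUSG00000026839, chromosome 2, from 58567298 to 58792971, plus strand) was low after APAP alone and near or above the control level when dmPGE2 was given first. It was at 76.1, 88.9 and 99.9 FPKM in controls, 26.4, 36.0 and 37.9 FPKM in APAP livers and 65.7, 128 and 134 FPKM in dmPGE2+APAP livers. The APAP libraries overlapped neither other group, while dmPGE2+APAP replicates 2 and 3 lay above all controls and replicate 1 below them. The difference of APAP from control was -1.29 (SE 0.25), or 0.410 of control. That of dmPGE2+APAP from APAP was 1.67 (SE 0.25), or 3.18-fold, and 1.98 without dmPGE2+APAP replicate 1. The comparisons share the APAP libraries, so a low APAP group enters both. Upp2 was 74.6, 98.1 and 83.3 times as high as Upp1, the other uridine phosphorylase gene, in controls, 20.2, 29.3 and 34.2 times in APAP livers and 109, 166 and 147 times in dmPGE2+APAP livers.

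The Upp2 locus spans 225674 bases. Its upstream printed window is rich in G and C (75.3%), and its downstream window, with the TATA letters, is not (47%, with a median of 52.7% over all windows). Of its 5 protein-coding GENCODE transcripts, 4 start within the downstream window. The other, Upp2-202, starts at 58567387, just past the end of the upstream window (58567383). The mRNA FPKM is per gene, so the coding transcripts of the 2 starts are not told apart. Upp2-206, a 690-base non-coding transcript that starts in the upstream window, did not have the gene's pattern. It was at 0.315, 0.519 and 1.25 FPKM in controls, 0.642, 0.713 and 0.918 FPKM in APAP livers and 0.516, 0.494 and 0.771 FPKM in dmPGE2+APAP livers, and the groups overlapped. Upp2-204, a non-coding transcript inside the downstream part (from 58765325), had the order of the gene at a much lower level. All its values were under the 0.5 FPKM of the filter. It lies within the span of the coding transcripts and may share reads with them, so its order says nothing about which start is used. It was at 0.0818, 0.0831 and 0.103 FPKM in controls, 0.00447, 0.0269 and 0.0268 FPKM in APAP livers and 0.0423, 0.202 and 0.290 FPKM in dmPGE2+APAP livers, with the APAP libraries below all others.

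The lncRNA table listed 24 entries for the 9 genes, 7 of them annotated as retained introns, 15 as processed transcripts and 2 assembled outside GENCODE. Dbp-205, which keeps an intron of Dbp, was at 3.57, 3.94 and 7.30 FPKM in controls, 0.548, 0.428 and 0.468 FPKM in APAP livers and 0.564, 1.74 and 1.31 FPKM in dmPGE2+APAP livers. The 3 groups of this entry did not overlap, but the treated groups nearly met, at 0.548 FPKM (APAP) and 0.564 FPKM (dmPGE2+APAP). The treated groups of the Dbp mRNA entry did overlap. Relative to that mRNA entry Dbp-205 was at 18.4, 18.6 and 11.8 percent in controls, 15.1, 26.1 and 16.4 percent in APAP livers and 28.7, 30.3 and 26.0 percent in dmPGE2+APAP livers. Tef-203, which keeps an intron of Tef, was at 5.28, 6.58 and 7.29 FPKM in controls, 1.46, 2.12 and 1.95 FPKM in APAP livers and 1.38, 2.49 and 2.09 FPKM in dmPGE2+APAP livers, and like the mRNA its treated groups overlapped below the controls. Tef-205, a 248-base processed transcript within Tef, was at 1.41, 1.25 and 1.73 FPKM in controls, 0.533, 0.991 and 0.695 FPKM in APAP livers and 0.145, 0.230 and 0.255 FPKM in dmPGE2+APAP livers. It separated the treated groups, which the Tef mRNA entry did not. Dbp-205 and Tef-205 were picked from the 24 entries after their values were seen. The share of all lncRNA entries whose treated groups do not overlap was not counted, so nothing is read from these separations. Transcripts that overlap an mRNA share its reads, so their FPKM is an estimate of unknown counting error.

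In the fit of all 11557 genes that passed the filter, 2415 were past the threshold for APAP against control (limma adjusted p under 0.05), 20.9% of those tested. Of the 9 clock output genes 5 were past it, Nfil3 and Bhlhe40 higher and Dbp, Tef and Upp2 lower, where 11.2% of all genes were called higher and 9.73% lower. The Bhlhe40 call was lost when any 1 of control replicate 1 or 2, APAP replicate 1, 2 or 3 or dmPGE2+APAP replicate 2 was left out. Hlf and Usp2 passed without APAP replicate 2, and Usp2 also without dmPGE2+APAP replicate 2. In deposited FPKM control and APAP libraries did not overlap for 8 of the 9 genes, 6 lower and 2 higher, and for 43.6% of all genes tested. The split of that share into higher and lower was not counted. Hlf was among the 8 and overlapped on rescaled values. For dmPGE2+APAP against control 3 of 9 passed, Nfil3 higher and Dbp and Tef lower, where 16.3% of all genes were called, 8.62% higher and 7.72% lower. Deposited FPKM did not overlap in that comparison for 5 of the 9, and for 42.4% of all genes. Usp2 was among the 5 and overlapped on rescaled values. The shares of all genes on rescaled values were not counted. At an unadjusted p under 0.05 limma gave 7 of 9 for APAP against control (35.6% of all genes) and 6 of 9 for dmPGE2+APAP against control (31.4%). Since the genes were chosen by these values, nothing is read from the counts. The median difference of APAP from control was -0.70 over the 9 genes and -0.0232 over all genes tested.

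For dmPGE2+APAP against APAP limma called 0 of 11557 genes (0%) and 0 of the 9 clock output genes. Without adjustment 1077 genes (9.32%) and 2 of the 9 had a p under 0.05. With 1 library left out, between 0 and 50 genes were called, the 50 without dmPGE2+APAP replicate 1, and Upp2 was among those. In deposited FPKM, libraries of the 2 treated groups did not overlap for Upp2, Ciart and Nfil3, which is 3 of 9, and for 16% of all genes. The median difference was 0.22 over the 9 genes and 0.00985 over all genes.

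**Figure D3:**
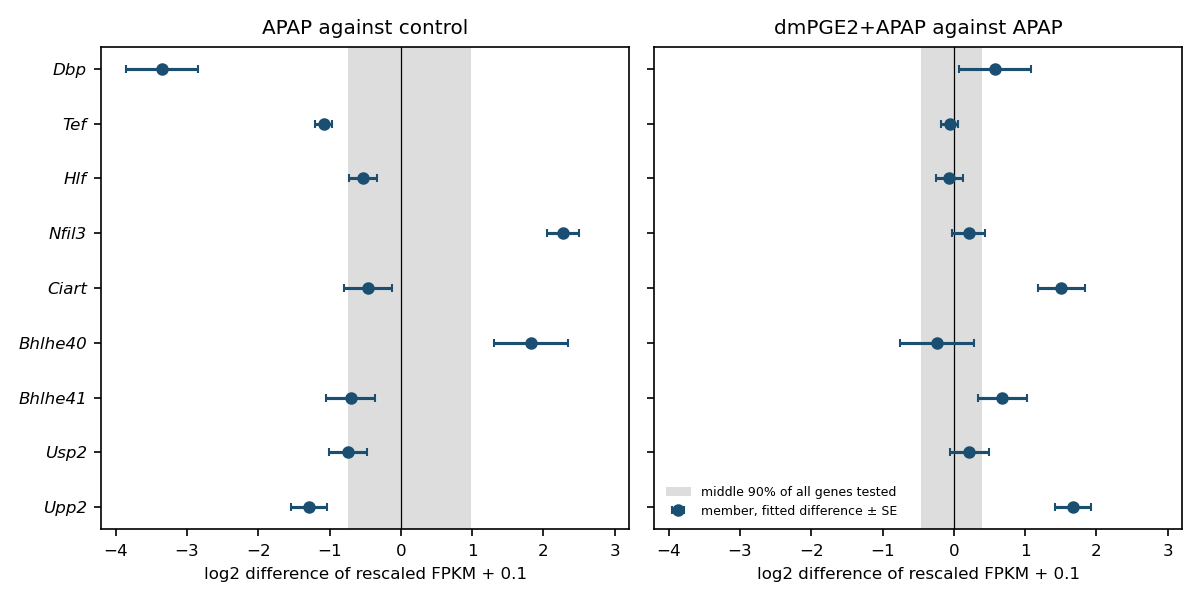
Fitted log2 difference ± SE (horizontal) of each clock output gene for APAP against control (left) and dmPGE2+APAP against APAP (right), with the middle 90% of all 11557 genes tested in grey. On the left Dbp (-3.35), Tef, Upp2 and, by a narrow margin, Usp2 lie below and Nfil3 (2.27) and Bhlhe40 above the grey band, and on the right Upp2 (1.67), Ciart (1.51), Bhlhe41 and Dbp lie above it.

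The core clock genes, a list of 13 that all passed the filter, were tested in the same fit. For APAP against control 7 were called higher and 1 lower, with a median difference of 0.47. Over all genes tested 11.2% were called higher and 9.73% lower, and the same shares apply to the lists that follow. Arntl, the partner of Clock, rose from 1.37 ± 0.878 to 7.28 ± 1.26 FPKM (log2 2.65, SE 0.45, adjusted p = 0.00425), with a difference of 2.03 without control replicate 3. Cry1, a repressor, rose from 3.48 ± 0.367 to 6.11 ± 0.900 FPKM (adjusted p = 0.00416), and Rora, which activates Arntl, from 15.5 ± 1.53 to 28.8 ± 0.624 FPKM (adjusted p = 0.000385). Per3, a period gene, fell from 4.57 ± 0.610 to 0.747 ± 0.296 FPKM (log2 -2.41, SE 0.26, adjusted p = 0.000482). Csnk1e and Csnk1d, kinases of PER proteins, rose from 2.17 ± 0.561 to 4.04 ± 1.03 FPKM (adjusted p = 0.0112) and from 16.7 ± 0.676 to 20.1 ± 0.110 FPKM (adjusted p = 0.0156).

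The other 2 calls in that list, Per1 and Cry2, did not outlast leaving out single libraries. Per1 was higher (8.20 ± 3.48 against 15.0 ± 1.10 FPKM, adjusted p = 0.034), and its call was lost without any 1 APAP library or dmPGE2+APAP replicate 2 or 3 (adjusted p between 0.0507 and 0.0928). Cry2 was higher (11.8 ± 0.994 against 14.1 ± 1.23 FPKM, adjusted p = 0.0343), and the call went with no rescaling and when control replicate 2 or 3, APAP replicate 1 or 3 or dmPGE2+APAP replicate 2 or 3 was left out. Clock (11.5 ± 1.69 against 14.7 ± 2.31 FPKM, adjusted p = 0.083), Npas2 (0.107 ± 0.0904 against 0.576 ± 0.408 FPKM, adjusted p = 0.0528), Per2 (5.16 ± 1.21 against 3.37 ± 0.374 FPKM, adjusted p = 0.113) and Nr1d2 (32.3 ± 4.75 against 23.9 ± 2.87 FPKM, adjusted p = 0.105) missed the threshold. Npas2 passed without control replicate 3 or without dmPGE2+APAP replicate 1 or 3 (adjusted p between 0.0472 and 0.0492). Its controls lay at 0.0139, 0.113 and 0.194 FPKM, near the 0.1 added before the log2. The Npas2 difference of 1.72 was 2.69 with 0.01 added (adjusted p = 0.0498) and 0.51 with 1 added (adjusted p = 0.132). Nr1d1, the repressor of Arntl, was at 24.4 ± 16.1 against 27.1 ± 2.17 FPKM (adjusted p = 0.357), and without control replicate 3 it passed as higher (log2 0.93, adjusted p = 0.00247).

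For dmPGE2+APAP against control, with the same control libraries, 8 of the 13 were called higher and 2, Per2 and Per3, lower (median 0.64). Of all genes 8.62% were called higher and 7.72% lower. Of the 8, Clock, Npas2, Per1, Cry2 and Csnk1e each lost the call without at least 1 single library. Npas2 reached 0.5 FPKM only in APAP replicate 2 (1.04 FPKM) and dmPGE2+APAP replicates 1 and 2 (1.29 and 0.761 FPKM). It thus entered the test through the groups where it was high, and nothing is read from its call. That call was also lost with 1 added in place of 0.1 (limma adjusted p = 0.06). Per3 was at 0.460 ± 0.0692 FPKM in that group (adjusted p = 0.000268) and Arntl at 8.88 ± 0.750 FPKM (adjusted p = 0.00327). Per2 was at 2.58 ± 0.545 FPKM (adjusted p = 0.018), a call lost without dmPGE2+APAP replicate 2 or 3 (adjusted p of 0.0687 and 0.0653). Between the treated groups limma called 0 of 13, and 0 had an unadjusted p under 0.05.

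**Figure D4:**
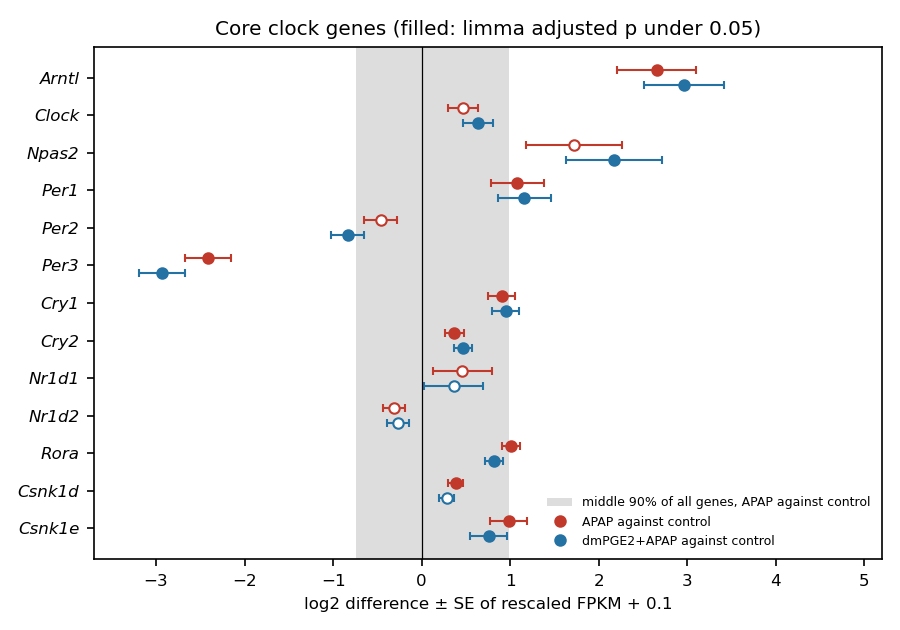
Fitted log2 difference ± SE (horizontal) of 13 core clock genes for APAP and dmPGE2+APAP against control, filled where the limma adjusted p was under 0.05, with the middle 90% of all genes for APAP against control in grey. Arntl lies furthest to the right (2.65 and 2.96) and Per3 furthest to the left (-2.41 and -2.93), and both comparisons use the same control libraries.

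Of 9 genes known to be driven by PAR bZIP factors 8 were tested, and 4 were called lower and 0 higher for APAP against control (median -0.62). Cyp2a5, a cytochrome P450 gene whose reads may be shared with its near copy Cyp2a4, fell from 265 ± 65.5 to 39.2 ± 15.4 FPKM (adjusted p = 0.000443). Alas1, the first enzyme of haem synthesis, fell from 187 ± 35.6 to 84.5 ± 12.6 FPKM (adjusted p = 0.00524). Cyp7a1, which limits the rate at which bile acids are made, was lower (log2 -2.73, adjusted p = 0.0244), and leaving out control replicate 2 or 3 or APAP replicate 1 ended the call (adjusted p between 0.0571 and 0.08). Cyp2c50, a P450 gene of a family with close relatives, was lower (368 ± 56.9 against 190.1 ± 58.0 FPKM, adjusted p = 0.0288), and its call ended without any 1 control library or APAP replicate 1 or 3. The nuclear receptor gene Nr1i3 (47.7 ± 11.8 against 46.6 ± 8.00 FPKM, adjusted p = 0.751), the P450 reductase gene Por (252 ± 119 against 262 ± 10.7 FPKM, adjusted p = 0.563) and Cyp2b10 (3.30 ± 1.56 against 11.6 ± 13.6 FPKM, adjusted p = 0.251) did not pass. Among them Nr1i3 had a difference of 0.10, or -0.13 without control replicate 3, and Por one of 0.33, or -0.20 without it. For dmPGE2+APAP against control 2 were called lower, Cyp2a5 and Alas1, and 0 higher. The Alas1 call was lost when any 1 of control replicates 1 and 2 and the 3 dmPGE2+APAP libraries was left out (adjusted p between 0.0685 and 0.09). Between the treated groups 0 of 8 were called, with 3 at an unadjusted p under 0.05.

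Of 14 genes of pyrimidine synthesis, salvage, breakdown and transport beside Upp2, 13 were tested, and for APAP against control 2 were called higher and 1 lower (median 0.19). These counts are near the share over all genes tested, 11.2% higher and 9.73% lower, so no response of the list is read from them. Tymp, the thymidine phosphorylase gene, rose from 20.0 ± 0.949 to 34.4 ± 4.47 FPKM (adjusted p = 0.00229). Umps, which makes uridine monophosphate, fell from 4.82 ± 1.32 to 2.55 ± 0.177 FPKM (adjusted p = 0.0107). Uckl1, a uridine kinase relative, was higher (5.94 ± 0.747 against 7.31 ± 0.600 FPKM, adjusted p = 0.0352), and its call was kept under leaving out a library only for control replicate 1. The enzymes that break uracil down further did not pass, with Dpyd at 139.7 ± 27.9 against 145 ± 9.01 FPKM (adjusted p = 0.444), Dpys at 83.6 ± 3.74 against 76.6 ± 6.91 FPKM (adjusted p = 0.961) and Upb1 at 58.7 ± 1.88 against 50.1 ± 6.66 FPKM (adjusted p = 0.498). The uridine kinase genes Uck1 (13.7 ± 1.68 against 10.8 ± 0.529 FPKM, adjusted p = 0.286) and Uck2 (2.76 ± 0.0879 against 3.09 ± 0.241 FPKM, adjusted p = 0.066) did not pass either. Upp1 was at 1.04 ± 0.148, 1.21 ± 0.101 and 0.761 ± 0.153 FPKM in controls, APAP and dmPGE2+APAP livers, and Cda, which deaminates cytidine, at 5.07 ± 2.07, 6.40 ± 1.71 and 2.58 ± 0.691 FPKM. For dmPGE2+APAP against APAP 0 of 13 were called, with 3 at an unadjusted p under 0.05 (adjusted p = 0.356 for Upp1 and 0.325 for Cda).

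Of 7 other rhythmic liver genes 3 were called higher and 0 lower for APAP against control (median -0.31). Elovl3, a fatty acid elongase gene, rose from 46.1 ± 7.50 to 141 ± 22.4 FPKM (adjusted p = 0.000469), and Insig2, which restrains sterol synthesis, from 53.2 ± 17.2 to 130.3 ± 15.7 FPKM (adjusted p = 0.00469). Avpr1a, a vasopressin receptor gene, was called higher with overlapping groups (adjusted p = 0.0333), and the call ended with no rescaling and without control replicate 1 or 2, APAP replicate 2 or 3 or dmPGE2+APAP replicate 2. Wee1 (3.72 ± 1.76 against 2.59 ± 0.508 FPKM, adjusted p = 0.451), Noct (5.92 ± 1.66 against 3.86 ± 0.492 FPKM, adjusted p = 0.202) and Nampt (20.4 ± 1.80 against 13.5 ± 0.917 FPKM, adjusted p = 0.07) did not pass, and Nampt passed as lower with no rescaling, without control replicate 3 or without dmPGE2+APAP replicate 1. The Wee1 difference of -0.31 was 0.01 without control replicate 3.

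Genes induced by glucocorticoids, feeding and fasting were measured in the same libraries. Of 6 glucocorticoid-induced genes 3 were called higher and 0 lower for APAP against control (median 1.13). Sgk1, a kinase gene, rose from 12.9 ± 4.04 to 37.5 ± 3.50 FPKM (adjusted p = 0.00139) and Zbtb16, a transcription factor gene, from 8.88 ± 2.71 to 23.7 ± 3.10 FPKM (adjusted p = 0.00127), and Per1 is in this list too. Fkbp5 (33.3 ± 20.4 against 56.4 ± 10.3 FPKM, adjusted p = 0.135) and Tsc22d3 (33.5 ± 2.25 against 43.3 ± 9.14 FPKM, adjusted p = 0.106) missed the threshold, and the Fkbp5 difference of 1.13 was 0.42 without control replicate 3. Of 7 fasting-induced genes 4 were called higher and 0 lower (median 1.35), and the fourth, Ppargc1a, lost its call without some single libraries. Igfbp1, which binds insulin-like growth factors, rose from 44.8 ± 22.3 to 809.9 ± 100.5 FPKM (adjusted p = 0.000165), Pdk4, a brake on glucose oxidation, from 1.97 ± 0.706 to 82.2 ± 22.0 FPKM (adjusted p = 0.000139) and the hormone gene Fgf21 from 2.13 ± 1.34 to 17.9 ± 5.48 FPKM (adjusted p = 0.00195). Pck1 was at 1503 ± 702 against 1384 ± 165 FPKM (adjusted p = 0.827), a difference of 0.14 that was -0.38 without control replicate 3. Of 7 feeding-induced lipogenic genes 6 were tested, with 0 called higher and 1 lower (median -0.67). That was Elovl6, a fatty acid elongase gene (8.22 ± 5.06 against 2.32 ± 0.806 FPKM, adjusted p = 0.0246), whose call ended when any 1 of APAP replicate 2, APAP replicate 3 and control replicate 2 was left out (adjusted p between 0.0523 and 0.0717). Srebf1 (31.6 ± 30.7 against 13.8 ± 4.12 FPKM, adjusted p = 0.393) and Fasn (26.3 ± 24.9 against 10.5 ± 0.537 FPKM, adjusted p = 0.281) missed the threshold. Both control means rest on control replicate 3: the differences were -0.68 and -0.79 with it and 0.04 and -0.08 without it. The part of these signals in the clock output genes was not tested.

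The genes whose levels across the 9 libraries were most like those of Dbp were Olfml1 (Pearson r = 0.982), Prss8 (0.981), Abcg8 (0.975), Idh1 (0.974) and Frmd4a (0.974). Most like Upp2 were Nectin2 (0.949), Sh3bgrl (0.943), Cyp7a1 (0.937), Klb (0.935) and B3galt1 (0.933). The r takes no account of the size of a difference. Nectin2 and Sh3bgrl differed by only -0.19 and -0.14 for APAP against control, where Upp2 differed by -1.29. For dmPGE2+APAP against APAP they differed by 0.24 and 0.17, and Upp2 by 1.67. The r values are descriptions over 9 libraries that fall into 3 groups, on rescaled log2 values. Among the clock output genes Dbp had an r of 0.923 with Tef and -0.932 with Nfil3, and Upp2 had an r of 0.745 with Bhlhe41, 0.72 with Ciart and 0.459 with Dbp.

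Values of 3 of the 5 genes closest to Upp2 are given, and each, like Upp2, had its lowest dmPGE2+APAP level in replicate 1. The genes were picked for their likeness to Upp2 over these same libraries, so a shared low replicate 1 is no separate result. That library was the lowest of its group for 43.4% of all genes tested. Cyp7a1 was at 17.5, 43.3 and 40.5 FPKM in controls, 1.99, 5.75 and 6.72 FPKM in APAP livers and 8.40, 57.2 and 34.4 FPKM in dmPGE2+APAP livers. B3galt1, a galactosyltransferase gene, was at 8.85, 7.31 and 11.8 FPKM in controls, 3.43, 2.87 and 3.60 FPKM in APAP livers and 4.84, 10.5 and 11.2 FPKM in dmPGE2+APAP livers. Klb, the co-receptor for hormones of the FGF family, was at 15.0, 15.8 and 17.5 FPKM in controls, 11.3, 13.1 and 11.1 FPKM in APAP livers and 13.1, 17.8 and 17.2 FPKM in dmPGE2+APAP livers. For B3galt1 and Cyp7a1 the APAP libraries overlapped neither other group, whereas for Klb APAP replicate 2 lay just above the lowest dmPGE2+APAP library.

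**Figure D5:**
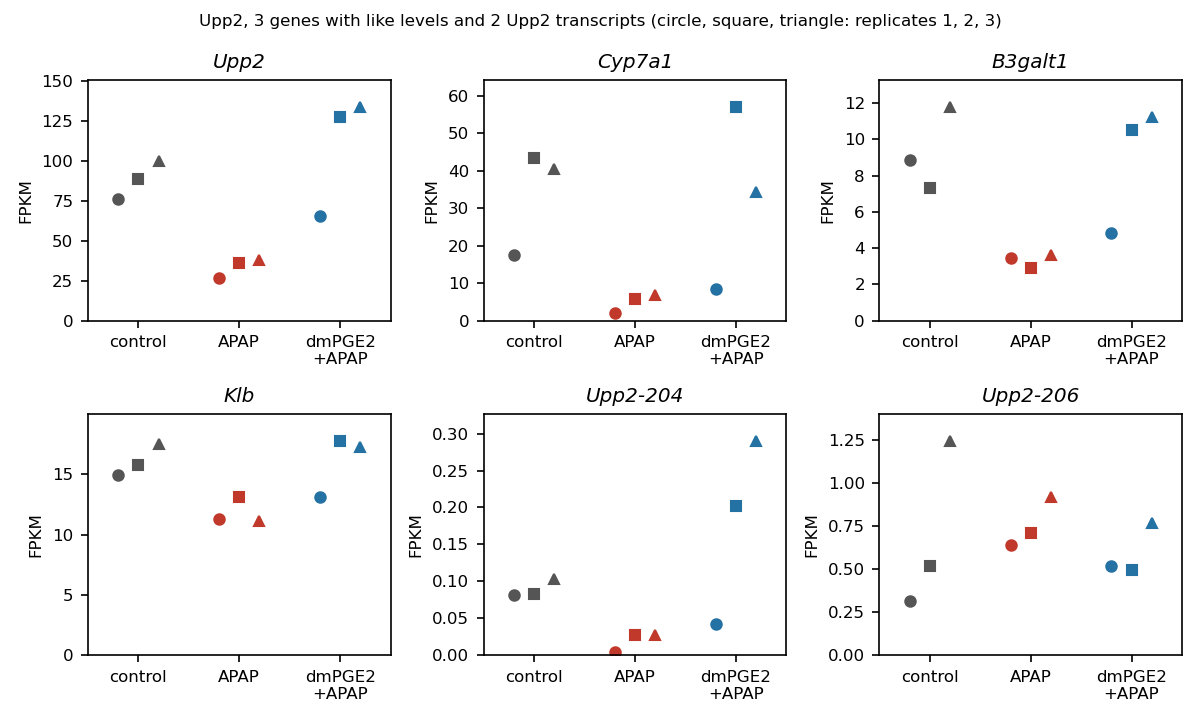
Deposited FPKM (vertical axis, starting at 0) of Upp2, of 3 of the 5 genes most like it across the libraries (Cyp7a1, B3galt1, Klb) and of 2 non-coding Upp2 transcripts, in each of the 9 libraries. In all panels but that of Upp2-206 the APAP libraries lie below all controls and dmPGE2+APAP replicate 1 lies below replicates 2 and 3, while Upp2-206 overlaps between all groups.

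Per library, deposited FPKM summed to between 371958.2 and 393937.6 over the mRNA table, and the depth in reads is unknown. Hepatocyte markers were high in all groups. Their 7 genes summed to between 32450 and 35800 FPKM in controls, 38920 and 45560 in APAP livers and 39570 and 44140 in dmPGE2+APAP livers, and limma called 0 of 7 for APAP against control (1 at an unadjusted p under 0.05). Alb made up most of the sum, with means of 22971 FPKM in controls and 28645 FPKM in APAP livers. Apoa1 and Apob also had higher deposited means after APAP, and Ttr, Cps1, Hnf4a and Serpina1c had lower ones. The 6 neutrophil markers summed to between 2.345 and 6.615 FPKM in controls, 8.939 and 39.14 in APAP livers and 4.922 and 10.69 in dmPGE2+APAP livers. Of 4 tested 3 were called higher after APAP, and Ly6g and Mpo were at most 0.091 and 0.0285 FPKM in any library. The 6 Kupffer cell markers summed to between 83.2 and 93.81 FPKM in controls, 50.91 and 86.85 in APAP livers and 88.48 and 93.17 in dmPGE2+APAP livers, with 1 called higher after APAP. Sinusoidal endothelial markers lay between 63.16 and 85.8 FPKM over all libraries (1 called higher and 1 lower after APAP), stellate cell markers between 82.59 and 134.9 FPKM (1 higher) and cholangiocyte markers between 13.71 and 44.55 FPKM (1 higher). In whole liver, fewer cells of a type and less RNA per cell cannot be told apart, and the part of cell composition in the levels above was not tested.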

How the data were processed

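Liver RNA of 9 libraries was sequenced after removal of ribosomal RNA, with dUTP marking the second strand, per the labels' protocols. The submitters' processing notes name HISAT2 and the GRCm38 build (mm10). The quantifier and its filters are not given in the sources used here. The authors deposited FPKM per gene (mRNA) and per transcript (lncRNA), per the file headers. No label defines the short name of the control columns, which were taken as control since every other column names a treatment. Tables deposited as read counts follow FPKM times locus span and were not used, so depth and counting error are unknown.

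FPKM was divided by a library factor (trimmed mean of log ratios to the geometric-mean library, trimming 30% by ratio and 5% by abundance). The factors moved APAP against control by 0.116, dmPGE2+APAP against APAP by 0.0154 and dmPGE2+APAP against control by 0.132 on the log2 scale, and differences are relative to that shift. After adding 0.1 and taking log2, which understates changes of low genes, limma 3.58.1 (R 4.3.3, abundance trend, 6 residual degrees of freedom) was fitted to all libraries as 3 group means. The script was tested on simulated data. Genes reaching 0.5 FPKM in 3 or more libraries entered the test, two-sided, with Benjamini-Hochberg adjustment over all of them at 0.05. Values with ± are mean ± SD of deposited FPKM. P-values measure only the spread between these libraries, which may be technical. With 3 against 3 an exact test of 1 gene cannot go below 0.1.

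The genes and lists were chosen with earlier results of these data known, and 3 list genes are not reported here. Named were all clock output genes, genes fixed by symbol from each list, up to 3 further called genes per list with the largest change, and the 5 genes with the highest Pearson r to Dbp and to Upp2. The non-coding transcripts, B3galt1 and Klb were picked for description after their values were seen. Sequences are from RefSeq (GRCm38.p6) and annotation from GENCODE (GRCm38). Alternatives were other pseudocounts, filters, scalings and fits, and leaving out each library.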

Additional observations from a re-analysis of the deposited data

How the results depend on the processing

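Alternatives were a pseudocount of 1 or 0.01, no filter, no rescaling, scaling by the median, no trend, only the 2 groups compared, a replicate block and leaving out each library. With 1 library left out, the number of genes called ranged from 1552 (without APAP replicate 3) to 2344 for APAP against control, from 0 to 50 (without dmPGE2+APAP replicate 1) for dmPGE2+APAP against APAP and from 1025 (without dmPGE2+APAP replicate 2) to 1838 for dmPGE2+APAP against control. The last comparison gave 1225 without control replicate 2 and 1148 without dmPGE2+APAP replicate 3. The clock output genes called ranged from 4 to 6, 0 to 1 and 3 to 5. With only the 2 treated groups in the fit 2 genes were called between them. With no rescaling 31.6% of calls for APAP against control and 28.5% for dmPGE2+APAP against control were higher, where the reported splits were 53.5% and 52.8%. The alternatives refit the values by which the clock output genes were chosen, so nothing is read from the calls of these genes. Dbp, Tef, Nfil3 and Upp2 were called for APAP against control under each of the 17 alternatives. Bhlhe40 lost that call in 9 of them, also with no filter, with the replicate block and with 2 groups, and Hlf and Usp2 gained it with no rescaling. Against control, dmPGE2+APAP livers passed for Upp2 without dmPGE2+APAP replicate 1, for Bhlhe40 without control replicate 3 and for Ciart without control replicate 2 or dmPGE2+APAP replicate 1, and for Hlf with no rescaling, without APAP replicate 2 and with 2 groups. Scd1, a lipogenic gene, had a log2 difference of APAP from control between -0.79 and 0.52 with 1 library left out, the latter called and reversed without control replicate 3. The cause of these changes was not tested. Deviations from the group means correlated from -0.117 to 0.0715 between same-numbered libraries and from -0.154 to 0.149 between differently numbered ones. Such values cannot show whether the samples were paired by design. The replicate block gave 2033, 0 and 1470 calls, with 4, 0 and 3 clock output genes among them. As the depth is unknown, no counting limit can be given.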
